A study of Mus musculus with 4 samples.

Results

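The cells described here were fibroblasts that carried transcripts of dividing cells in spermatogonial cultures kept on a feeder layer. They were selected on read-out values, as barcodes with 401 to 3999 genes, under 10% mitochondrial UMIs (unique molecular identifiers, 1 per captured transcript), at least 2 UMIs of the fibroblast genes Col1a1, Col1a2, Sparc and Dcn, no UMI of the germ cell genes Dazl, Tex15, Stk31 and Epcam, and at least 3 UMIs summed over the 8 cycle genes Mki67, Top2a, Ube2c, Cdc20, Ccnb1, Cenpf, Pclaf and Rrm2. This rule found 227 cycling fibroblasts among 7027 fibroblasts and 23207 barcodes that passed the filters. Vehicle 1 gave 104 of them, vehicle 2 gave 105 and EV 1 gave 18.

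Thy1+ testis cells of 3 male pups at postnatal day 6 had been grown on STO cells, a mouse embryonic fibroblast line used as a feeder layer, and then received either 1 µg/ml of extracellular vesicles (EVs) from postnatal day 7 mouse testis or PBS as vehicle for 3 days. The 2 vehicle libraries and EV 1 had count matrices, and the expression of EV 2 was not analysed here. All groups shared the same isolation and feeder layer, and a treatment to arrest the feeder cells was not given in the sources used here. The EV donors were C57BL/6 mice, and no strain was stated for the pups themselves. Library totals ran from 10793232 UMIs in EV 1 to 27444797 in vehicle 2, and EV 1 held 188 germ cells by a germ sum of at least 2 UMIs and a fibroblast sum of 0, against 3627 and 4127 in the vehicle libraries. Pairs of libraries shared 11 to 22 barcodes.

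Feeder fibroblasts supply growth factors and matrix to germline stem cells, and such layers are commonly growth-arrested before use. A dividing fibroblast first copies its DNA in S phase, when the licensing factors, the replication fork and nucleotide supply genes such as Rrm2 are expressed. It then builds a spindle in G2 and M phase, when Top2a, Cenpf, Ccnb1 and the ubiquitin ligase partners Cdc20 and Ube2c reach their peak. In G1 and in resting cells, the DREAM complex represses many of these genes through a promoter element with the letters TTTGAA, the cell cycle homology region, and the factor NF-Y binds CCAAT boxes near it.

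The upstream sequences of 4 genes of the rule are shown to let these elements be read in genes that picked out the cells. Top2a and Cdc20 carry both in the window printed, Mki67 carries TTTGAA there and CCAAT further upstream, and Rrm2 carries CCAAT alone. They are RefSeq promoter windows on build GRCm38.p6, printed 5′ to 3′ on the gene's strand from 120 bases before the start and trimmed where an annotated gene begins. Capitals mark TTTGAA and CCAAT on either strand, so that TTCAAA and ATTGG are the same elements read on the other strand.
Top2a, chr11:99024190-99024309, minus strand: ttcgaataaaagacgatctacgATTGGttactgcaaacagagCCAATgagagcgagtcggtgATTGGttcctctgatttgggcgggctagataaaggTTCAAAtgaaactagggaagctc
Mki67, chr7:135716380-135716499, minus strand: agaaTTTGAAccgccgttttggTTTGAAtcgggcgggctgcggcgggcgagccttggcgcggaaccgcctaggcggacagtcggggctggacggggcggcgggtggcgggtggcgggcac
Cdc20, chr4:118437353-118437463, minus strand: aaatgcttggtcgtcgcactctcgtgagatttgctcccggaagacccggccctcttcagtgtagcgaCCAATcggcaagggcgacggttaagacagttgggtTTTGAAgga
Rrm2, chr12:24708134-24708240, plus strand: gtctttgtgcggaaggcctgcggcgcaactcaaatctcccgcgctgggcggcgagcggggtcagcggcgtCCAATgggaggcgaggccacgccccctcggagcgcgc

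In the 250 bases before the start, CCAAT was found in 8 of the 8 cycle genes and in 34.5% of 27025 promoters of the same length, and TTTGAA was found in 4 of the 8 (Mki67, Top2a, Ube2c and Cdc20) and in 16.3% of all promoters. Both elements stood together in the same 4 genes and in 5.73% of all promoters. The 2 elements did not overlap in the windows printed. Such matches describe the letters of the window and not a bound site.

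Cycling fibroblasts made up 4.88% of the fibroblasts of vehicle 1 (104 of 2129, 95% Wilson interval 4.05 to 5.88) and 4.60% of those of vehicle 2 (105 of 2282, 3.82 to 5.54). In EV 1 the share was 0.688% (18 of 2616, 0.436 to 1.09). The EV 1 share lay 4.06 percentage points below the vehicle mean of 4.74% ± 0.201 (SD, n = 2), while the vehicle libraries lay 0.284 points apart. With counts from 1 EV library there is no test of EVs against vehicle, and all intervals here cover counting error only. The intervals of EV 1 and of either vehicle library did not overlap.

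Depth differed along with the arm, so the share was also taken within ranges of depth. Among fibroblasts with 4000 UMIs and over, the share was 8.24% in vehicle 1, 7.95% in vehicle 2 and 2.82% in EV 1. Among those with 2000 to under 4000 UMIs it was 2.60%, 2.18% and 0.469%. Under 2000 UMIs it was 2.07% and 0.292% in the vehicle libraries, and EV 1 had 0 of 912 cells, with a Wilson upper bound of 0.419%. When every cell was thinned to 2000 UMIs, leaving out shallower cells, the shares were 3.26%, 3.34% and 0.408%. The EV 1 share was the lowest in each of these ranges, and it rose with depth as the vehicle shares did. Under 2000 UMIs its upper bound lay above the 0.292% of vehicle 2, so a lower share than in vehicle 2 is not shown there.

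**Figure D1:**
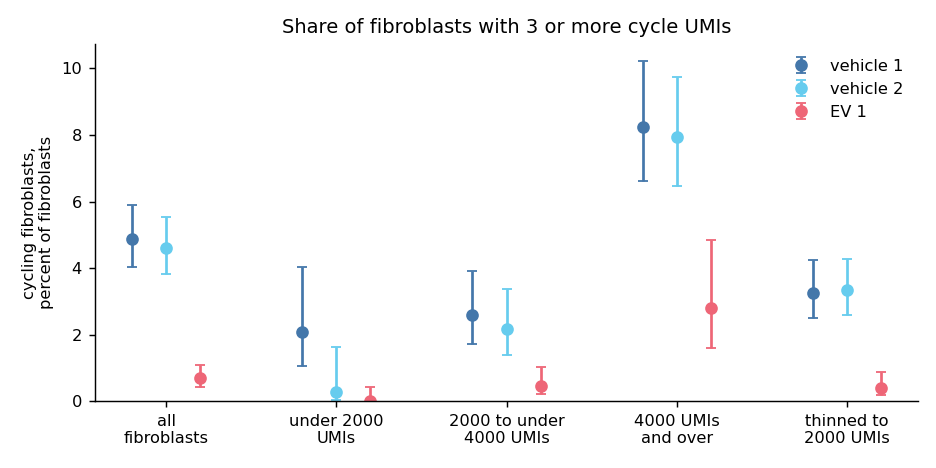
Share of fibroblasts with at least 3 cycle UMIs (y axis, percent of fibroblasts) in each library, for all fibroblasts, for 3 ranges of UMIs per cell and after thinning to 2000 UMIs. Points are library values and bars are 95% Wilson intervals. EV 1 (red) lies at 0.688% over all fibroblasts, against 4.88% and 4.60% in the vehicle libraries.

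The 8 genes that chose the cells are given as a description. Top2a, which untangles replicated DNA, stood at 553, 656 and 867 CPM (UMIs scaled to the same total in every sum) in the cycling fibroblasts of vehicle 1, vehicle 2 and EV 1, and at 14.1, 13.1 and 3.85 CPM in the other fibroblasts. Mki67, the proliferation antigen, stood at 228, 333 and 220 CPM against 5.07, 3.97 and 1.71 CPM. Pclaf, a partner of the replication clamp PCNA, stood at 426, 429 and 173 CPM against 4.94, 4.30 and 2.57 CPM. The rule fixes that these levels are high. Per cell, the cycle sum had a median of 8 UMIs in vehicle 1, 12 in vehicle 2 and 9 in EV 1, with the highest cells at 47, 65 and 22.

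Near the threshold, 40 members had exactly 3 cycle UMIs (24, 12 and 4) and 125 fibroblasts just outside had 2 (51, 62 and 12). The 140 cell cycle genes of the lists that the rule did not use summed to 14109, 12070 and 12629 CPM in cells with 3 cycle UMIs. In cells with 2 they summed to 9014, 9991 and 8253 CPM, and in cells with 0 to 7895, 8126 and 7706 CPM. Cells with 15 or more cycle UMIs reached 25804, 26606 and 22217 CPM. The step across the threshold was therefore partial in each library, and cells at the threshold lay below the deeper members. Of the cells with 3 cycle UMIs, 7 of 24 in vehicle 1 held a UMI of a germ cell marker outside the rule. In vehicle 2 and EV 1 these were 0 of 12 and 0 of 4. Among vehicle 1 cells with 0 cycle UMIs, 100 of 1682 held one. The part of germ cell RNA in the threshold cells was not tested.

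**Figure D2:**
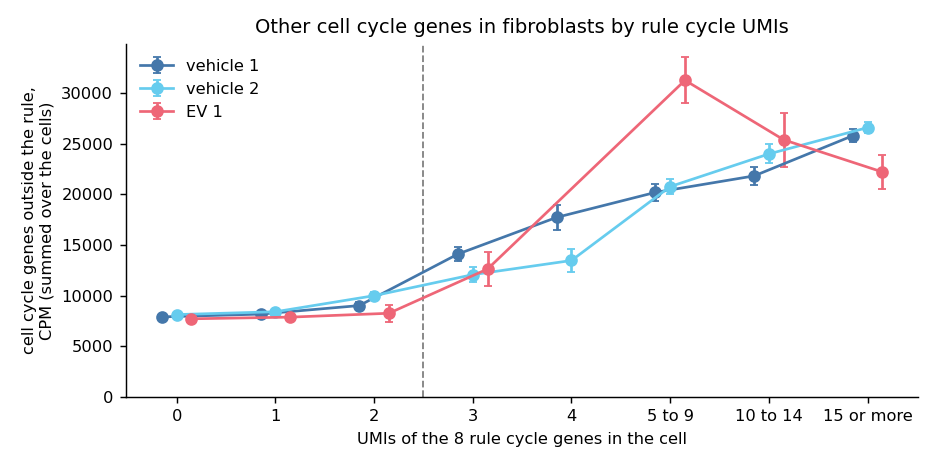
Summed level of the cell cycle genes outside the rule (y axis, CPM) in fibroblasts grouped by their UMIs of the 8 rule cycle genes (x axis). Bars are 95% counting intervals, points with under 3 cells are left out and the dashed line is the threshold of 3 UMIs. The vehicle libraries rise from 7895 and 8126 CPM at 0 UMIs to 25804 and 26606 CPM at 15 or more, and each EV 1 point above the threshold rests on 4 or 5 cells.

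The label was checked against markers the rule did not use. Other germ cell markers (9 genes) summed to 46.6, 18.9 and 11.6 CPM in cycling fibroblasts, against 972, 1022 and 694 CPM in germ cells. The 4 Y-linked genes summed to 4.82, 2.91 and 0 CPM, against 173, 184 and 184 CPM in germ cells of the male pups. The Y content of the STO line was not given in the sources used here, so this sets the cells apart from the pups' germ cells without naming the line. The fibroblast markers outside the rule summed to 3224, 3198 and 3030 CPM. The cells thus held fibroblast transcripts beside those of the cycle, and the name feeder rests on the culture's description.

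Markers of Leydig cells, macrophages and endothelial cells left few UMIs in these cells. Of the 5 Leydig cell markers only Star was seen (3, 0 and 0 UMIs). Of the 5 macrophage markers, Adgre1 and C1qa were at 0 and the summed level was 9.64, 10.2 and 46.3 CPM, with 4 UMIs in EV 1. Of the 4 endothelial markers Kdr was at 0, and the sum was 4.82, 4.37 and 0 CPM. The 6 Sertoli markers summed to 233, 243 and 312 CPM, nearly all from Sox9, while Amh, Aard and Cldn11 were at 0. In the other fibroblasts the same list summed to 284, 304 and 279 CPM.

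Doublets and germ cell RNA were measured beside the members. Germ markers outside the rule stood at 4.79%, 1.85% and 1.67% of their germ cell level in cycling fibroblasts, and that share of germ cell RNA would carry 137, 54.3 and 28.0 CPM of the 8 cycle genes, where 1995, 2313 and 2174 CPM were measured. In the other fibroblasts, the same calculation gave 53.8, 53.8 and 25.9 CPM against 50.0, 46.6 and 24.4 CPM measured. The rule itself sets these cycle levels high in the first class and low in the second, so the values are a description. Scrublet, a doublet caller, marked 8, 14 and 0 of the cycling fibroblasts at 0.8% of cells per 1000, which is 7.69%, 13.3% and 0% of them, against 1.38%, 1.88% and 5.04% of other fibroblasts. Without the marked cells the share of cycling fibroblasts was 4.59%, 4.09% and 0.724%.

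Cycling fibroblasts held more UMIs per cell than the others. Their median was 5795, 6367 and 4729 UMIs per cell, against 3477, 3749 and 2445 UMIs. The rule counts UMIs, and its part in this gap was not tested. Median depth rose below the threshold too, from 3385 and 3590.5 UMIs at 0 cycle UMIs to 5364 and 5734.5 at 2 in the vehicle libraries. Members with 3 cycle UMIs stood at 4200 and 6261.5 UMIs, and those with 4 at 3419 and 5045.5. Members at the threshold were thus not deeper than their neighbours in vehicle 1.

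To place the cells in the cycle, S and G2/M scores were computed from 42 S-phase and 49 G2/M genes without the rule genes, after thinning each cell to 1000 UMIs. In vehicle 1, 45.6% of 103 cycling fibroblasts scored as S and 45.6% as G2/M. In vehicle 2 the shares were 45.2% and 47.1% of 104, and in EV 1 they were 33.3% and 61.1% of 18. The EV 1 intervals of 16.3 to 56.3% for S and 38.6 to 79.7% for G2/M contain the vehicle shares. After thinning to 2000 UMIs the S shares were 57.3%, 44.2% and 22.2% (interval for EV 1 9.0 to 45.2%) and the G2/M shares 36.5%, 50.0% and 66.7% (43.7 to 83.7%), so that vehicle 1 lay outside the EV 1 intervals and vehicle 2 inside. Whether EV 1 differed in position thus turned with the thinning, with 18 cells. S or G2/M together covered 91.3%, 92.3% and 94.4% of cycling fibroblasts, and 39.5%, 42.2% and 37.3% of the others. A phase call alone was thus common in fibroblasts with under 3 cycle UMIs and is not read as cycling.

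**Figure D3:**
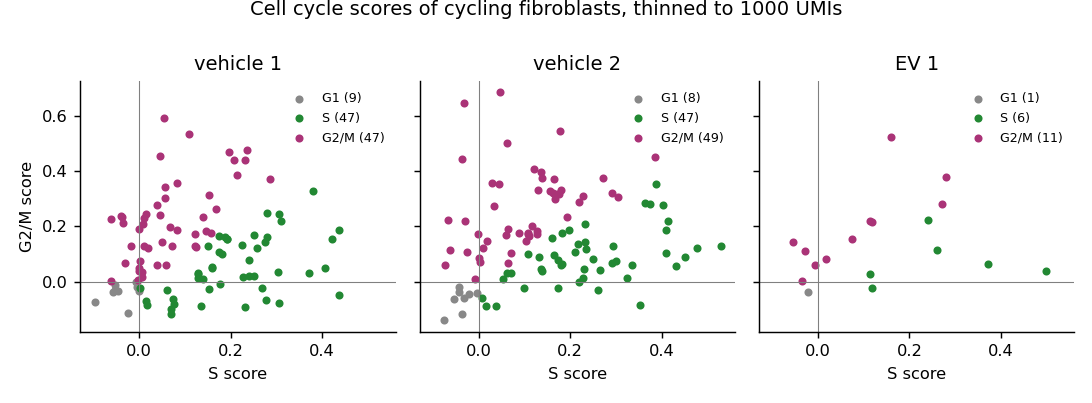
S score (x axis) and G2/M score (y axis, both unitless) of each cycling fibroblast after thinning to 1000 UMIs, 1 panel per library, coloured by the called phase with the number of cells. The vehicle libraries hold 47 and 47 S-scored cells and 47 and 49 G2/M-scored cells, and EV 1 holds 6 and 11.

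Genes of both phases were present in both groups of scored cells. Ube2c, which marks proteins for destruction in mitosis, stood at 374 and 399 CPM in the G2/M-scored cells of the vehicle libraries and at 141 and 229 CPM in the S-scored ones. Cenpf, a kinetochore protein, stood at 349 and 408 CPM against 173 and 259 CPM. Rrm2, the small subunit of ribonucleotide reductase, stood at 187 and 195 CPM in G2/M-scored and 217 and 202 CPM in S-scored cells, with overlapping counting intervals. Pclaf likewise stood at 447 and 465 CPM against 462 and 492 CPM. Cdc20 stood at 42.9 and 65.95 CPM in G2/M-scored and 44.2 and 47.2 CPM in S-scored cells, and its counting intervals also overlapped. Ube2c and Cenpf were thus higher in the G2/M-scored cells of both vehicle libraries, while for Cdc20, Rrm2 and Pclaf a difference was not detectable at this depth.

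The cell cycle lists, with the rule genes taken out, are also given as a description, because cells chosen on 8 cycle genes carry the rest of the programme with them. The values are log2 ratios of cycling to other fibroblasts from the fit over the 3 libraries. The spindle, kinetochore and cytokinesis list had a median of 4.74 with 21 of 21 fitted genes above 0, and the G2/M list had 4.32 with 48 of 48. The S-phase list had 2.84 with 40 of 42. The replication list, with the licensing and fork genes, had 2.67 with 29 of 29, and nucleotide supply had 2.12 with 9 of 9. Chromatin and tubulin genes of dividing cells had 1.33 with 10 of 10. The cyclins and kinases split, with 7 of 11 above 0. Of these 7 lists the spindle and G2/M lists had the highest medians, and the median over all genes tested was -0.11.

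Genes outside the rule and the lists of the cycle were tested between cycling and other fibroblasts with edgeR's quasi-likelihood test on 6 UMI sums, with library as a block and Benjamini-Hochberg adjustment over 11929 genes. At an adjusted p under 0.05, 913 genes were higher (7.65% of those tested) and 1210 were lower (10.1%). Cycle genes that no list held stayed in the tested set, and the selection fixes their direction. Their part of the 913 was not counted, so the 7.65% holds an unknown part made by the selection. With library totals in place of TMM factors the split was 1102 higher and 901 lower. In cells matched 1 for 1 on total UMIs it was 464 and 326 of 7318 genes. The 2 sums of a library come from the same culture, and 3 libraries are the replicates. The counts of the lists that follow stand against these shares of 7.65% and 10.1%, and 1 call among about 10 genes lies near them and is not read as a result about a list.

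Genes were ranked among those called with the same direction in 3 libraries and at least 100 UMIs. The 10 with the highest ratios were Esco2, Neil3, Sgo1, Pbk, Sgo2a, Spc24, Spc25, Kif4, Lockd and Kntc1. Esco2, which joins sister chromatids in S phase, stood at 86.7, 80.1 and 116 CPM in cycling fibroblasts against 0.888, 1.32 and 0.428 CPM, a log2 ratio of 6.41 ± 0.37 (SE). Sgo1, the guardian of centromeric cohesion, stood at 53, 67.0 and 116 CPM against 1.27, 0.661 and 0.571 CPM. Spc25, a subunit of the NDC80 kinetochore complex, stood at 103, 115 and 104 CPM against 2.79, 2.98 and 0.999 CPM. For these 3 genes the summed levels of cycling fibroblasts lay above those of the others in each library. The selection fixes their direction as it does for the lists, so they are not independent evidence that the cells cycled.

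Genes among the 10 lowest were Gm13708, Gm10550, Gm17058, Btg4, Spag6, BC006965, Gm28258 and Ikzf2. The first 3 of them had 0 UMIs in cycling fibroblasts of every library, and with a floor of 3 counts over the group they were at least 2.29-fold, 2.10-fold and 2.10-fold lower. Btg4, a gene of the BTG antiproliferative family, stood at 1.61, 0 and 0 CPM against 8.11, 7.27 and 12.8 CPM, a log2 ratio of -3.50 ± 1.01 (SE, adjusted p = 0.0053 by edgeR). Ikzf2, a zinc finger factor of the Ikaros family, stood at 3.21, 1.46 and 0 CPM against 13.9, 15.1 and 15.3 CPM. These genes were near the detection limit in the cycling sums, which held 622567, 687061 and 86466 UMIs.

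The glycolysis and hypoxia genes were lower in cycling fibroblasts. Of 15 genes tested, 0 rose and 14 fell, with a median log2 ratio of -0.56 against -0.11 over all genes tested. Vegfa, the vascular growth factor induced by low oxygen, stood at 41.8, 34.9 and 81.0 CPM against 88.6, 94.7 and 148 CPM, a log2 ratio of -1.29 ± 0.19 (SE, adjusted p = 2.85e-10). Aldoa, a glycolytic aldolase, stood at 827, 818 and 891 CPM against 1328, 1272 and 1488 CPM (-0.77 ± 0.11, adjusted p = 4.8e-10). Slc2a1, the glucose transporter GLUT1, stood at 93.2, 80.1 and 220 CPM against 145, 155 and 327 CPM. In each library these 3 genes were lower in the cycling cells. Pfkl, Pgam1, Hk2 and Pkm, also called lower, were not lower in EV 1, with log2 ratios there of 0.38, 0.083, 0.049 and 0.018. In depth-matched cells 8 of the 15 passed the test, all lower, Vegfa, Aldoa and Slc2a1 among them. DESeq2 called 6 lower, the fit without the library block 4, and the fits without vehicle 1 or vehicle 2 called 4 and 3, with Vegfa and Aldoa in each of these sets.

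The list also lay below the other fibroblasts in both scored phases of the vehicle libraries. It summed to 9683 and 8567 CPM in S-scored cells, to 9265 and 8542 CPM in G2/M-scored cells and to 11925 and 11888 CPM in other fibroblasts. In EV 1 the 6 S-scored cells stood at 12879 CPM (11579 to 14284) and the 11 G2/M-scored cells at 10297 CPM (9477 to 11169), against 13736 CPM in the others.

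Both metallothioneins, small proteins that bind zinc and copper, were lower as well. Mt1 stood at 1467, 1636 and 6072 CPM in cycling fibroblasts against 2784, 2599 and 9032 CPM in the others, a log2 ratio of -0.84 ± 0.12 (SE, adjusted p = 3.2e-10). Mt2 stood at 288, 279 and 786 CPM against 414, 412 and 1496 CPM (-0.74 ± 0.12, adjusted p = 6.6e-09). The cycling cells were lower in every library although EV 1 was high in both classes. Both also passed the test in depth-matched cells and under DESeq2, and neither did without the library block, where the log2 ratios were larger (-0.90 and -1.16).

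Matrix genes fell in part. Of 11 other collagens 0 rose and 4 fell (median -0.62), and of 10 tested genes of matrix and its remodelling 1 rose and 3 fell (median -0.27). Fn1, the adhesion glycoprotein fibronectin, stood at 620, 693 and 636 CPM against 1217, 1269 and 1219 CPM, a log2 ratio of -1.02 ± 0.12 (SE, adjusted p = 1.2e-16). Col3a1, a fibrillar collagen, stood at 93.2, 88.8 and 92.5 CPM against 189, 197 and 123 CPM (-1.11 ± 0.14, adjusted p = 1.1e-12). Timp1, an inhibitor of matrix proteases, was the one that rose, from 400, 384 and 661 CPM to 588, 687 and 1018 CPM (0.59 ± 0.10, adjusted p = 6.5e-07). In depth-matched cells Fn1, Col3a1 and Lox passed the test and Timp1 did not, and of the collagens only Col3a1 passed. Without the library block Timp1 and Mmp2 lost their calls, and the collagens called were Col3a1 and Col5a2.

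Of 13 fibroblast markers outside the rule that were tested, 0 rose and 8 fell, with a median of -0.62. Of those 8, Col3a1, Col5a1, Col5a2 and Fn1 are already counted in the lists above, and the others were Ly6c1, Pdgfra, Pdpn and Vim. In depth-matched cells 2 of 11 passed (Col3a1 and Fn1), and 3 of 13 passed under DESeq2 and without the block (these and Col5a2). Among 8 contractile and TGF-beta response genes, 0 rose and 3 fell (Ccn1, Ccn2 and Tgfbi). In depth-matched cells 0 of 5 passed, and 0 of 8 were called without the library block. The rule genes Col1a1 and Dcn had log2 ratios of -1.05 and -0.68, given as a description since they took part in the choice.

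**Figure D4:**
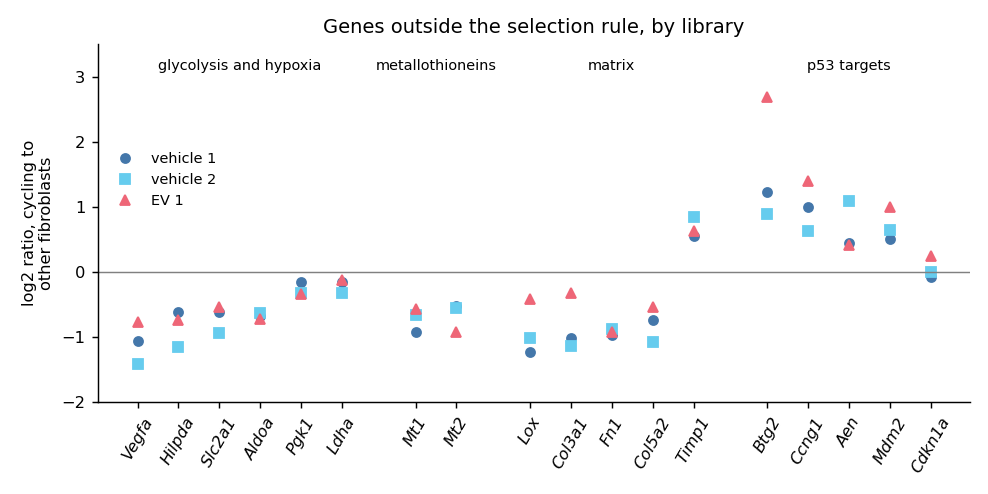
Log2 ratio of cycling to other fibroblasts (y axis, from UMIs per library total with 0.5 UMI added) for 18 genes outside the rule, with 1 point per library. The glycolytic, metallothionein and collagen genes plotted lie below 0 in all 3 libraries, and Timp1, Btg2, Ccng1, Aen and Mdm2 lie above 0. Pfkl, Pgam1, Hk2 and Pkm of the glycolysis list are not plotted and lay above 0 in EV 1.

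Among the brakes on the cycle, Cdkn1a, the p53-induced inhibitor p21, stood at 901, 1058 and 1157 CPM in cycling fibroblasts and at 949, 1057 and 983 CPM in the others, a log2 ratio of -0.07 ± 0.11 (SE, adjusted p = 0.72), so a difference was not detected. Cdkn2d, the INK4 inhibitor p19, stood at 98, 103 and 57.8 CPM against 41.3, 41.4 and 33.3 CPM (1.19 ± 0.17, adjusted p = 7.2e-11). Rbl1, the pocket protein p107, also rose (1.98 ± 0.43, adjusted p = 5.8e-05), and Cdkn2b, the inhibitor p15, fell (-0.85 ± 0.21, adjusted p = 0.00075). Of the 9 tested genes of this list 2 rose and 1 fell, with a median of 0.25. Rbl1 is itself expressed in cycling cells, and Cdkn2b lost its call in depth-matched cells while the other two kept theirs.

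Of 14 targets of p53 tested, 4 rose and 0 fell, with a median of 0.32. Ccng1, cyclin G1, stood at 342, 293 and 231 CPM against 171, 189 and 89.6 CPM, a log2 ratio of 0.79 ± 0.11 (SE, adjusted p = 5.9e-11). Mdm2, the ligase that degrades p53, stood at 307, 336 and 393 CPM against 217, 216 and 200 CPM (0.54 ± 0.11, adjusted p = 1.4e-05). Btg2, an antiproliferative gene, stood at 67.5, 58.2 and 92.5 CPM against 29.0, 31.9 and 15.3 CPM (1.10 ± 0.21, adjusted p = 3.8e-06). Aen, a nuclease induced by p53, rose by 0.70 ± 0.20. The groups did not overlap for Ccng1, Mdm2 and Btg2, and 5 of 13 targets were higher in depth-matched cells, these 4 and Eda2r. Without the library block and under DESeq2 the calls were Btg2, Ccng1 and Mdm2, and Aen lost its call in both. The targets that rose therefore did not include Cdkn1a.

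Of 8 genes of the integrated stress response 3 rose and 0 fell (median 0.67). Atf4, its transcription factor, stood at 67.5, 111 and 197 CPM against 55.5, 56.3 and 48.5 CPM (0.76 ± 0.16, adjusted p = 3.5e-05), and its target Ddit3 stood at 125, 176 and 208 CPM against 100, 89.2 and 111 CPM (0.63 ± 0.13, adjusted p = 3.2e-05). In depth-matched cells only Atf4 passed, and it was also the only call without the library block. Of 6 heat shock genes 3 rose (Hsp90aa1, Hspd1 and Dnajb1) and 0 fell, with a median of 0.28, and Hsp90aa1 and Hspd1 passed in depth-matched cells. Of 11 immediate early genes 2 rose (Junb and Atf3) and 4 fell (Fos, Fosb, Ier3 and Jun). In depth-matched cells the calls were Junb higher and Ier3 and Jun lower, of 10 genes. Without the library block 0 heat shock genes were called, and of the immediate early genes Jun alone was called, as lower.

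Secreted signals were mixed. Of 9 chemokines and cytokines tested 4 rose and 2 fell (Ccl2 and Ccl7). Cxcl1, a neutrophil chemokine, stood at 337, 399 and 520 CPM against 198, 166 and 507 CPM (0.74 ± 0.11, adjusted p = 1.1e-10). The call of Ccl5 rests on 1 library, with 22.5, 163 and 0 CPM against 42.0, 37.7 and 25.1 CPM, and 75 of its 112 UMIs in vehicle 2 came from 1 cell. Without vehicle 2 its log2 ratio was -1.04. All 10 Cxcl2 UMIs of vehicle 1 likewise came from 1 cell. In depth-matched cells 0 chemokines were higher and 2 were lower, Ccl2 and Ccl7, and 0 of 9 were called under DESeq2 or without the library block.

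Among 10 tested growth factors known to act on spermatogonia, Kitl, the ligand of Kit, rose from 86.2, 91.1 and 86.2 CPM to 127, 125 and 127 CPM (0.44 ± 0.14, adjusted p = 0.013). Fgf7, a fibroblast growth factor, stood at 89.95, 94.6 and 127 CPM against 129, 133 and 157 CPM (-0.56 ± 0.15, adjusted p = 0.0015), and Lif also fell. Gdnf, which sustains spermatogonial stem cells, stood at 16.1, 20.4 and 11.6 CPM against 17.8, 18.1 and 27.8 CPM (adjusted p = 0.84). Kitl was higher in the cycling cells of all 3 libraries, and of the 3 calls that of Fgf7 alone held in depth-matched cells and without the library block, while DESeq2 called 0 of the 10. Of 9 interferon-stimulated genes 0 rose and 2 fell, Ifit1 and Oasl2, and 0 of 6 passed in depth-matched cells.

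EV 1 was then set beside the vehicle libraries within the cycling fibroblasts, as values without a test. Of 4711 genes with at least 50 UMIs over the 3 sums, 142 (3.01%) were at least 2-fold higher in EV 1 than in both vehicle libraries and 357 (7.58%) were at least 2-fold lower, with 0.5 UMI added. With 2 UMIs added the counts were 250 and 49, so the balance between higher and lower turned with the amount added. At equal totals of 86466 UMIs per sum, 23.7% of these genes were 2-fold apart between EV 1 and vehicle 1, 23.0% between EV 1 and vehicle 2, and 19.9% between the vehicle libraries. Among the 1080 genes with at least 200 UMIs these shares were 7.96%, 7.78% and 3.796%. The totals were matched and the number of cells was not, with 18 cells behind the sum of EV 1 and 104 and 105 behind the others, so the distance of EV 1 cannot be told apart from its few cells.

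The metallothioneins summed to 1754 and 1915 CPM in the cycling fibroblasts of the vehicle libraries and to 6858 CPM in EV 1, 3.73 times the pooled vehicle level (exact interval 3.40 to 4.08). A single one of the 18 cells, shallow at 2147 UMIs and scored as neither S nor G2/M, held 156 of the 593 metallothionein UMIs of EV 1 (26.3%). Without it the level was 5183 CPM and the ratio 2.82 (2.54 to 3.12), a value chosen after seeing the data. In other fibroblasts the ratio was 3.40 (3.36 to 3.44), an interval that overlaps the first and lies above the second. EV 1 thus lay above the vehicle libraries in both classes. Its 6 S-scored cells stood at 2410 CPM and its 11 G2/M-scored ones at 6546 CPM.

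The glycolysis and hypoxia list summed to 9323, 8791 and 11519 CPM, a ratio of 1.27 (1.19 to 1.36) against 1.15 (1.14 to 1.16) in other fibroblasts. Of its 15 genes 6 were called higher and 0 lower (Bnip3, Hilpda, Hk2, Ndrg1, Slc2a1 and Vegfa), against 3.01% and 7.58% of all 4711 genes. In the other fibroblasts 4 of the 15 were called higher and 0 lower, where 242 of 12486 genes were higher and 352 lower. The calls are thus not particular to the cycling cells. Integrated stress response genes stood at 259, 377 and 625 CPM, a ratio of 1.95 (1.44 to 2.59) against 1.06 (0.996 to 1.12) in other fibroblasts. Chemokines stood at 2099, 2538 and 1365 CPM (ratio 0.586, 0.483 to 0.704) and interferon-stimulated genes at 466, 483 and 243 CPM (ratio 0.511, 0.314 to 0.789). In the other fibroblasts these last 2 ratios were 0.791 and 0.366. Among these 4 lists, the intervals of the glycolysis and stress response ratios lay above those of the other fibroblasts and the chemokine interval lay below, all from 1 EV library. Without the EV 1 cell that held most UMIs of each list the 4 ratios were 1.26, 1.71, 0.483 and 0.430. No cell was taken out of the vehicle libraries. For the chemokine and interferon lists this step therefore tends to lower the ratio further and is no check. In vehicle 2, 1 cell held 122 of the 1744 chemokine UMIs.

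**Figure D5:**
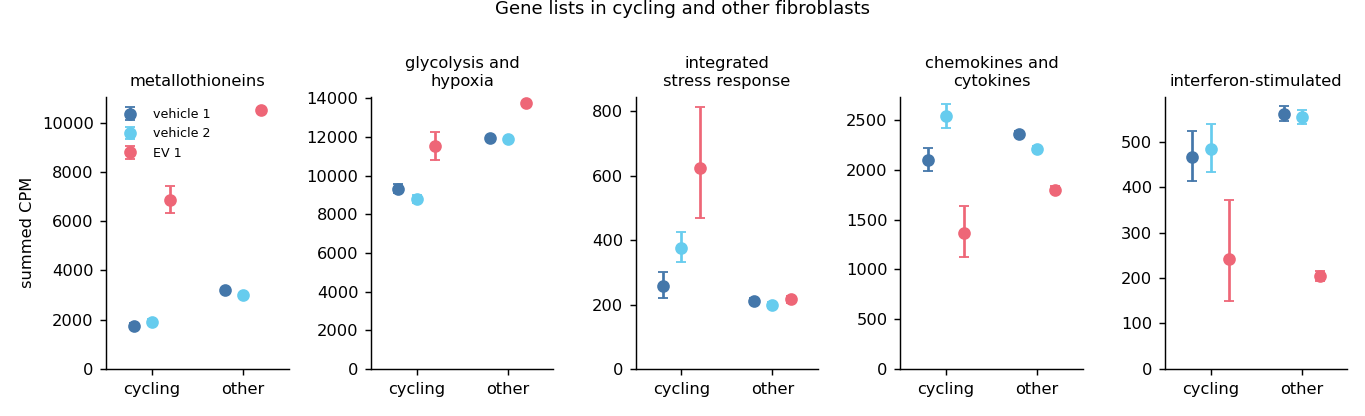
Summed level of 5 gene lists (y axes, CPM) in cycling and other fibroblasts (x axis) of vehicle 1, vehicle 2 and EV 1. Bars are exact 95% Poisson intervals. The metallothioneins stand at 6858 CPM in cycling fibroblasts of EV 1 against 1754 and 1915 CPM in the vehicle libraries, and are lower in cycling than in other fibroblasts of each library.

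The cycle lists were compared in the same way, although the rule sets a minimum on the level of the members in every library. The 8 rule genes summed to 1995, 2313 and 2174 CPM (ratio 1.01, 0.863 to 1.17), the S-phase list without its rule gene to 3270, 3834 and 3724 CPM (1.04, 0.930 to 1.17) and the G2/M list without its 5 rule genes to 5638, 6379 and 6523 CPM (1.08, 0.992 to 1.18). The replication list had a ratio of 1.21 (1.04 to 1.40), and 1.12 (0.953 to 1.30) without its highest EV 1 cell. Of the G2/M list 1 of 42 genes was called higher (Dlgap5), and of the S-phase list 1 of 32 was called lower (Pold3). Over all 4711 genes 3.01% were higher and 7.58% lower, so neither call is read as a result about its list.

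Among called genes with at least 100 UMIs over the 3 sums, the 5 furthest up by the ratio to the vehicle mean were Gclm, Hk2, Mt1, Hbegf and Jmjd6. Gclm, the regulatory subunit for glutathione synthesis, stood at 83.5, 93.2 and 405 CPM, and in other fibroblasts at 58.1, 55.4 and 118 CPM. Hk2, a hexokinase, stood at 61.0, 75.7 and 266 CPM, and Hbegf, an EGF-family ligand, at 80.3, 71.3 and 289 CPM. The 5 furthest down under the same limit were Gda, Ccl5, Gm26885, Ltbp3 and Cp, an order that for genes at 0 follows from the 0.5 UMI added. Gda, Ccl5, Gm26885 and Ltbp3 were at 0 UMIs in EV 1, which allows up to 34.7 CPM (3 UMIs). Against this floor Gda, Gm26885 and Ltbp3 were at least 2.41-fold, 2.22-fold and 1.99-fold lower than in vehicle 1. Ccl5 stood at 22.5 CPM in vehicle 1, under the floor, so that a lower level in EV 1 is not shown, and its 163 CPM in vehicle 2 came mostly from 1 cell. Cp, the copper protein ceruloplasmin, stood at 183, 194 and 23.1 CPM with 2 UMIs in EV 1 (ratio 0.123, 0.0148 to 0.448). Leaving out Ccl5, these genes lay on the same side of the vehicle libraries in the other fibroblasts of EV 1 except Gm26885, which stood there at 3.04, 4.52 and 4.71 CPM.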

How the data were processed

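Droplet libraries (10x Genomics) of spermatogonial cultures on STO feeder cells were used. Per the submitters' processing notes and the study's methods, the authors ran Cell Ranger 7.0.1 on mm10 with GENCODE vM23. The deposited matrices hold raw UMI counts per gene and barcode. UMI counting removes amplification copies, and levels were compared between samples and not between genes. Barcodes of EV 2 were deposited and its expression was not analysed here.

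Members and gene lists were chosen with earlier results of these data known. Counts of cycling and other fibroblasts were summed per library and tested with edgeR 4.0.16 (TMM factors, filterByExpr, quasi-likelihood, library as block), with DESeq2 1.42.0 as an alternative. Both sums of a library come from 1 culture, which is where the pairing comes from. The 16 rule genes and the cell cycle lists stayed in the fit and out of the tested set. Adjusted p-values are Benjamini-Hochberg over 11929 genes, with a threshold of 0.05. The SE beside a log2 ratio was worked back as the absolute ratio over the square root of the test's F statistic, and is approximate. p-values rest on how the difference between the 2 sums of a library spreads over 3 libraries, since the block takes out the spread between libraries. EV 1 was compared with the vehicle libraries by folds alone. Named genes were those of the lists and the rule, the 10 highest and 10 lowest called genes with the same direction in 3 libraries and at least 100 UMIs (2 of the lowest are not reported here), and the 5 highest and 5 lowest EV calls with at least 100 UMIs. Shares carry 95% Wilson intervals. Doublets were kept, with removal as an alternative. Scripts were tested on simulated data. Gene positions were those of GRCm38.

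Depth was 10793232 to 27444797 UMIs a library, and 86466 to 687061 in the cycling sums, so a count of 0 in EV 1 allows up to 3 UMIs. Alternatives varied the thresholds, depth, normalization, filter and libraries.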

Additional observations from a re-analysis of the deposited data

Results flagged for a closer look

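For 4 of 29 gene lists and 12 of 81 named genes called between cycling and other fibroblasts, both vehicle libraries lay on one side and EV 1 on the other. The difference was not tested, and EV 1 rests on 18 cells. Interferon-stimulated genes had a log2 ratio of cycling to other fibroblasts of 0.28 in EV 1 (21 UMIs in cycling cells), where both vehicle libraries were below 0. Sertoli markers stood at 0.19 in EV 1, through Sox9 at 0.20 (27 UMIs), again with the vehicle libraries below 0. Contractile genes stood at -0.17 and niche growth factors at -0.084 in EV 1, with the vehicle libraries just above 0.

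Among single genes, Mmp2 stood at 0.93 (5 UMIs), Tgfbi at 0.84 (2 UMIs), Fos at 0.85 (2 UMIs) and Ly6c1 at 0.74 (13 UMIs) in EV 1, each lower in cycling cells of the vehicle libraries. The glycolytic genes Pfkl at 0.38 (16 UMIs), Pgam1 at 0.083 (143 UMIs), Hk2 at 0.049 (23 UMIs) and Pkm at 0.018 (122 UMIs) and the chemokine Ccl7 at 0.066 (7 UMIs) did the same. Cxcl2 at -2.27 and Atf3 at -1.09 had 0 UMIs in the cycling cells of EV 1, so that these values follow from the 0.5 UMI added. A count of 0 there allows up to 34.7 CPM, above the 27.8 and 12.3 CPM of the other fibroblasts, and no direction is shown for either gene.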

How the results depend on the processing

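The gap in the share of cycling fibroblasts between EV 1 and the vehicle mean (-4.06 percentage points) kept its sign in all settings run. It was -1.13 and -2.90 after thinning to 1000 and 2000 UMIs, -6.15 and -3.03 with at least 2 and 5 cycle UMIs, -4.37 with at least 5 fibroblast UMIs, -3.61 with doublets removed, -3.68 without cells holding a germ marker or Y-linked UMI, and -4.20 to -3.91 without either vehicle replicate. Settings chosen after seeing the data gave -2.12 with at least 10 cycle UMIs and -1.18, -1.92 and -5.28 in cells of under 2000, 2000 to under 4000, and 4000 UMIs and over.

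Between cycling and other fibroblasts, the fit without the library pairing (no replicate block) called 529 genes higher and 418 lower, against 913 and 1210. DESeq2 called 430 and 224, and depth-matched cells gave 464 and 326. At least 5 fibroblast UMIs gave 467 lower, and measuring on the UMIs not used for selection gave 493 lower. Leaving out 1 library gave 317 to 1228 higher and 185 to 986 lower, with 404 and 254 without vehicle 1 and 317 and 185 without vehicle 2. Of 81 named genes, 33 kept their call without the block, 32 under DESeq2, 38 of 66 in depth-matched cells, and 33, 24 and 72 without vehicle 1, vehicle 2 and EV 1. Ccl5 alone turned its direction among them, to -0.46 under DESeq2 and from 1.73 to -1.04 over the fits without 1 vehicle library. The EV arm shares only replicate number 1 with counts, so no paired fit of EV against vehicle was possible.

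EV 1 calls within cycling fibroblasts (142 higher and 357 lower) were 455 and 921 with a minimum of 20 UMIs, 11 and 26 with 200 UMIs, 250 and 49 with 2 UMIs added, 519 and 722 at 1.5-fold, and 11 and 9 of 773 genes (in place of 4711) with sums thinned to the shallowest total. TMM factors gave 89 higher, and 221 to 307 higher and 427 to 467 lower came from a single vehicle library. S-scored cells were 57.3% in vehicle 1 and 22.2% in EV 1 after thinning to 2000 UMIs. With rule genes in the scores, the vehicle libraries had 42.7% and 35.6% S and 53.4% and 60.6% G2/M, EV 1 had 16.7% S (5.84 to 39.2) and 77.8% G2/M (54.8 to 91.0), and S or G2/M together reached 96.1% and 96.2% in the vehicle libraries. The cycling sum of EV 1 held 86466 UMIs from 18 cells of 1 library.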
